A study of Rattus norvegicus with 9 samples.

Results

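The genes described here are the tumor necrosis factor (TNF) superfamily of ligands, its receptors, the adaptor proteins that bind them and the NF-κB transcription factors with their inhibitors. They were chosen by symbol alone: symbols that begin with Tnfsf, Tnfrsf or Tnfaip and a number, Traf1 to Traf7, symbols that begin with Nfkb, Rel with or without a final a or b, and Tnf, Lta and Ltb. The rule found 48 of the 17337 genes in the count table, namely 12 ligands, 17 receptors, 6 Traf adaptors, 5 Tnfaip genes, 3 NF-κB subunits and 5 inhibitors and other genes named Nfkb. RNA-seq was made from cardiac fibroblasts of Sprague Dawley rats, with 3 libraries from each of 3 ages: embryonic day 18 (called fetal), postnatal day 1 (neonatal) and 7 weeks (adult). All cells were of passage 0 and were grown to confluency in DMEM with 10% serum, antibiotics and ascorbic acid, and no agent or genetic change separated the groups. The labels do not say how many animals gave each culture or whether replicates were separate cultures, so the p-values measure the spread between these libraries, which may be technical.

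TNF-family ligands are mostly trimeric proteins of the cell surface that can be shed, and each binds one or a few receptors of the matching family. A bound receptor recruits Traf adaptors, which carry the signal to the IκB kinases. These kinases cause the breakdown of the inhibitors that hold NF-κB dimers in the cytoplasm, and the freed dimers enter the nucleus and switch on genes of inflammation and survival, the genes of their own inhibitors among them. In the heart this pathway is best known from injury and inflammation, where fibroblasts and macrophages both take part in it.

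Libraries held 13392825 to 22850491 assigned counts, the 3 adult libraries the fewest. Levels are counts per 1000000 counts (CPM) on library sizes scaled by TMM (trimmed mean of M values), given in the order of replicates 1, 2 and 3 of each age. Means are given ± SD over n = 3 libraries. The cells were not sorted, and markers of other cell types differed between the ages. All 12 macrophage markers were higher in each adult library than in any other, and their summed level was 14.3 to 69.1 CPM in fetal, 157 to 173 CPM in neonatal and 4171 to 5729 CPM in adult libraries. The 10 cardiomyocyte markers went the other way, from 6948 to 10605 CPM in fetal and 5014 to 5564 CPM in neonatal to 304 to 319 CPM in adult libraries. The 6 dendritic cell markers summed to 96.9 to 134 CPM in adult libraries, where Ccr7 and Cd83 were higher than at both earlier ages. Zbtb46 was higher in neonatal than in fetal cells, lower in adult than in neonatal cells and did not pass between adult and fetal cells. The other dendritic cell markers were too low to test. T and NK lymphocyte markers summed to 1.30 to 2.13 CPM in fetal, 0.790 to 1.10 CPM in neonatal and 17.2 to 24.6 CPM in adult libraries. Lck and Cd8a, the 2 of them that could be tested, were higher in adult cells than at both earlier ages. Cd3d was at 0 in adult libraries, as were the B lymphocyte markers Ms4a1 and Cd79b. The fibroblast list summed to 27553 to 53982 CPM in fetal, 72006 to 78258 CPM in neonatal and 27022 to 35570 CPM in adult libraries, so markers of the labelled cell type were abundant at every age. Fetal replicate 3 stood apart from the other fetal libraries, with a sum over 6 lung epithelial markers of 116 CPM against 1.81 and 2.16 CPM. Of these markers, only Cldn18 was high enough to test, and Sftpb and Sftpa1 were at 0 in all fetal libraries. Adult replicate 1 differed from the other adult libraries more than these did from each other. In bulk RNA, fewer cells of a type and less RNA per cell cannot be told apart.

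**Figure D1:**
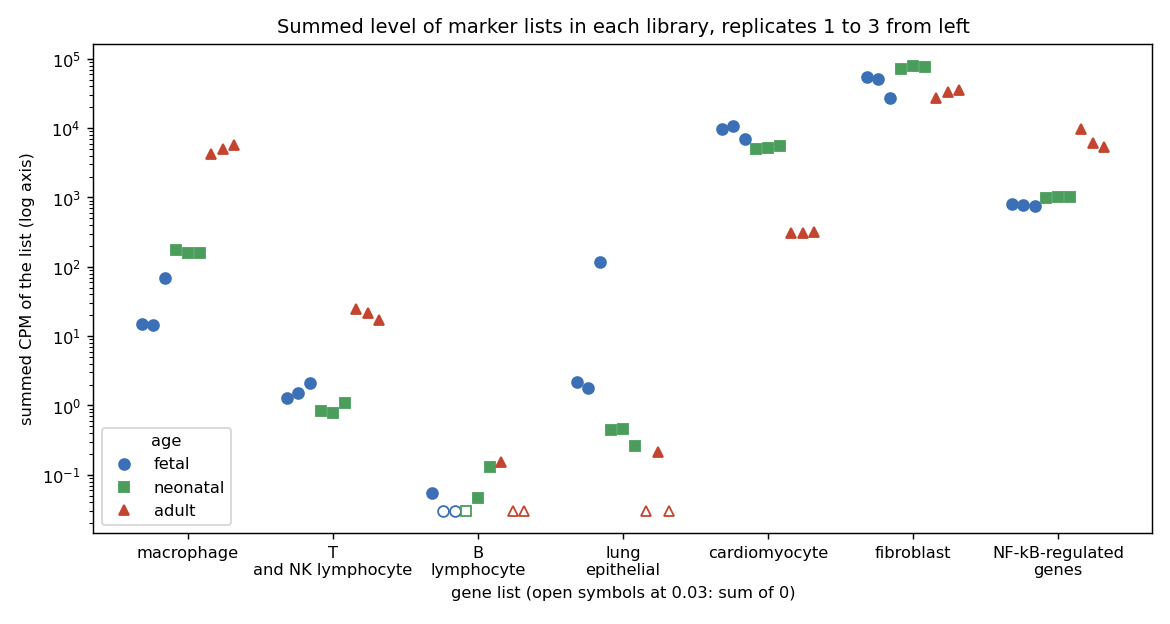
Summed level of 7 gene lists (CPM, log axis) in each of the 9 libraries, replicates 1 to 3 from left within each age, with open symbols for a sum of 0. The macrophage list lies at 4171 to 5729 CPM in the adult libraries and at no more than 173 CPM in any other, and the cardiomyocyte list falls to 304 to 319 CPM.

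Most of the genes that could be tested were higher in adult cells, with the ligands and the NF-κB inhibitors moving in 1 direction and the receptors and Traf adaptors divided. Of the 48 genes, 38 passed the filter on low counts and were tested with edgeR. Of these, 27 reached its cutoff in every library of all 3 ages, and 5 (Tnfsf4, Tnfsf13b, Tnfrsf4, Tnfrsf11a and Tnfrsf14) did so in the adult age only. A further 5 (Tnfsf15, Tnfrsf9, Tnfrsf25, Tnfrsf26 and Tnfaip8l2) did so in neonatal and adult libraries but not in all fetal ones. For these 10 the direction against fetal cells follows in part from the filter. For the 5 of the adult age only, so does the direction against neonatal cells. Tnfrsf19 reached the cutoff in every library of the fetal age only, so its lower level at the later ages follows in part from the filter too. Between adult and fetal cells 27 of the 38 were higher and 6 lower at an edgeR adjusted p under 0.05, beside 70.5% of all 11337 genes tested that passed in either direction. Between adult and neonatal cells 26 were higher and 5 lower, beside 63.5% of all genes. Between neonatal and fetal cells 13 were higher and 4 lower, beside 36.3% of all genes. The libraries of the compared ages did not overlap for 33 of the 38 between adult and fetal, 34 between adult and neonatal and 24 between neonatal and fetal cells, beside 71.8%, 76.1% and 57.4% of all genes. By direction, 71.1% of the 38 were higher in adult than in fetal cells, beside 34.9% of all genes, and 15.8% were lower, beside 35.5%. Over neonatal cells 68.4% were higher in adult cells, beside 31.6% of all genes, and 13.2% lower, beside 31.8%. From fetal to neonatal cells 34.2% rose, beside 18.3% of all genes, and 10.5% fell, beside 18%. The median log2 fold change of the 38 was 2.08 for adult against fetal, 1.19 for adult against neonatal and 0.18 for neonatal against fetal cells, where the medians over all genes were -0.01, -0.01 and -0.01. Among the 27 genes above the cutoff at every age, 17 were higher and 5 lower in adult than in fetal cells, beside 34.4% and 34.8% of the 9775 genes above it. Of the same 27, 20 were higher and 5 lower in adult than in neonatal cells, beside 30.9% and 31.9%. Between neonatal and fetal cells 10 were higher and 4 lower, beside 19.1% and 16.9%. The macrophage marker sums given above moved with these counts, and their part in them was not tested.

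By course, 22 genes were higher in adult cells than at both earlier ages, beside 26.5% of all genes, and 5 (Tnfrsf12a, Tnfrsf10b, Traf4, Traf6 and Tnfaip1) were lower than at both, beside 26.7%. Of the 22, 12 did not pass the test between neonatal and fetal cells. For Tnfsf13b, Tnfrsf11a and Tnfrsf14, which are among the 22, the direction against both earlier ages follows in part from the filter. A rise that passed at each step was found for 10 genes (Tnfsf9, Tnfsf12, Tnfsf13, Tnfrsf1a, Tnfrsf1b, Tnfrsf9, Tnfrsf26, Tnfaip2, Nfkb1 and Rela), beside 8.19% of all genes, and a fall at each step for Tnfrsf12a and Traf4, beside 7.99%. For Tnfrsf9 and Tnfrsf26 the direction against fetal cells follows in part from the filter. The first step of Tnfrsf9, Tnfrsf26 and Traf4 did not pass without some single libraries. Only Traf7 passed in no pair of ages, beside 18.4% of all genes.

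**Figure D2:**
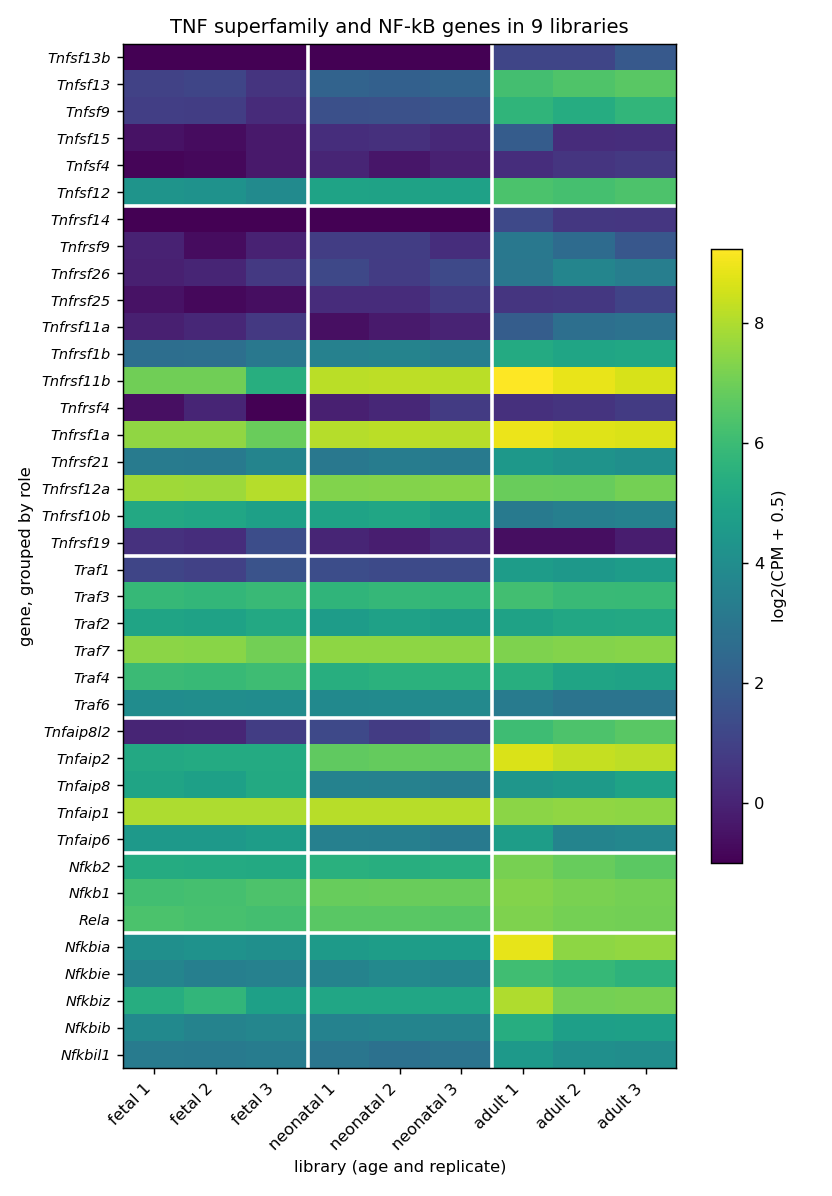
Level of the 38 tested genes (rows, grouped by role) in the 9 libraries (columns), as log2 of CPM plus 0.5. The Nfkb genes and the ligands other than Tnfsf15 are brightest in the 3 adult columns, whereas Tnfrsf12a, Traf4, Traf6 and Tnfaip1 are brighter at the earlier ages.

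Ligands had the largest median fold change of the 6 roles between adult and fetal cells. All 6 that could be tested were higher in adult than in fetal cells, 3 were higher in neonatal than in fetal cells and 4 higher in adult than in neonatal cells, and none was lower in any pair. In these pairs 100%, 50% and 66.7% passed, beside 70.5%, 36.3% and 63.5% of all genes in either direction. For Tnfsf4, Tnfsf13b and Tnfsf15 the direction against fetal cells follows in part from the filter, as does that of Tnfsf4 and Tnfsf13b against neonatal cells. The median log2 fold change of the 6 tested ligands from fetal to adult was 4.13. Tnfsf13 (APRIL), a growth and survival factor of B cells and plasma cells, measured 1.51, 1.68 and 0.956 CPM in fetal, 4.29, 3.95 and 4.27 CPM in neonatal and 71.1, 85.3 and 97.7 CPM in adult libraries. The 3 ages did not overlap, and the log2 fold change was 5.92 (SE 0.19, edgeR adjusted p = 1.67e-08) between adult and fetal cells and 1.57 (SE 0.21, edgeR adjusted p = 0.000662) between neonatal and fetal cells. Its neighbour Tnfsf12 (TWEAK), the ligand of Tnfrsf12a, lies 827 bases away on the same strand of chromosome 10 (rn6 56290780 to 56300077, with Tnfsf13 at 56286969 to 56289952). Tnfsf12 measured 19.2, 18.2 and 14.6 CPM in fetal, 29.8, 29.1 and 28.4 CPM in neonatal and 79.8, 74.3 and 82.7 CPM in adult libraries. It rose without overlap at each step but over a smaller range, with a log2 change of 2.19 (SE 0.10, edgeR adjusted p = 1.6e-07) between adult and fetal cells. Tnfsf9 (4-1BB ligand), which stimulates T cells through Tnfrsf9, measured 1.35, 1.32 and 0.691 CPM in fetal, 2.37, 2.42 and 2.65 CPM in neonatal and 51.7, 39.6 and 52.9 CPM in adult libraries. Most of its rise lay between neonatal and adult cells, where the log2 fold change was 4.28 (SE 0.20, edgeR adjusted p = 2.34e-07).

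Tnfsf13b (BAFF), the other B cell survival factor of the family, had no count in the 6 fetal and neonatal libraries and 22, 24 and 42 counts in the adult libraries, or 2.19 ± 0.83 CPM. Against a floor of 3 counts per library it was at least 14.5-fold higher in adult than in fetal and at least 13.2-fold higher than in neonatal cells, bounds that cover counting error only. Tnfsf4 (OX40 ligand) was low, at 0.154 ± 0.144 CPM in fetal (0.0711 CPM without replicate 3), 0.427 ± 0.138 CPM in neonatal and 0.967 ± 0.183 CPM in adult cells, and passed between adult and fetal cells only (edgeR adjusted p = 0.00261). Tnfsf15 passed only in that pair too (edgeR adjusted p = 0.00513), with adult levels of 3.44, 0.722 and 0.749 CPM, so that replicate 1 set the adult mean of 1.64 CPM, which was 0.736 CPM without it. Per kilobase of exon (RPKM), Tnfsf12 led the ligands in fetal cells at 11.3 ± 1.58, and no other ligand reached 1. In adult cells Tnfsf13 (51.6 ± 8.12 RPKM) and Tnfsf12 (51.3 ± 2.78 RPKM) did not differ beyond their spread, and Tnfsf9 followed at 36.7 ± 5.64 RPKM.

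TNF itself was close to absent from the counts. Tnf, the founding cytokine of the family, had 1 count in adult replicate 3 and 0 in the other 8 libraries, and Lta, Ltb (the lymphotoxins) and Tnfsf11 (RANKL) had 0 in all 9. Tnf, Ltb and Tnfsf11 each have 2 loci in the rn6 annotation used for counting. The Tnf loci are at chromosome 20, 4855829 to 4858446 on the plus strand and 5189383 to 5192000 on the minus strand, with 1686 exon bases each. Reads that map to both places were left out under the counting defaults, so these 0s do not set an upper limit on expression. Of the remaining untested ligands, Tnfsf10 (TRAIL) had 1, 3 and 2 counts and Tnfsf14 (LIGHT) 2, 5 and 7 counts in adult libraries, with no more than 1 in any other library.

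Receptors were divided: of 13 tested, 10 were higher and 3 lower in adult than in fetal cells, 6 higher and 1 lower in neonatal than in fetal cells, and 7 higher and 2 lower in adult than in neonatal cells. Those that passed made up 100%, 53.8% and 69.2% of the 13, beside 70.5%, 36.3% and 63.5% of all genes. Tnfrsf1a, the broadly expressed TNF receptor that carries a death domain (rn6 chromosome 4, 157864990 to 157877633), measured 186, 186 and 119.8 CPM in fetal, 273, 294 and 286 CPM in neonatal and 496, 424 and 401 CPM in adult libraries. The ages did not overlap, and the log2 fold change was 1.42 (SE 0.16, edgeR adjusted p = 4e-05) between adult and fetal cells and 0.63 (SE 0.16, edgeR adjusted p = 0.0066) for adult over neonatal cells. Tnfrsf1b, the TNF receptor without a death domain that is found mostly on immune and endothelial cells (chromosome 5, 163136390 to 163167299), measured 5.995, 6.26 and 8.18 CPM in fetal, 10.8, 11.6 and 9.90 CPM in neonatal and 38.3, 31.9 and 33.6 CPM in adult libraries. It rose by a log2 change of 2.34 (SE 0.14, edgeR adjusted p = 6.06e-07) between fetal and adult cells. The endothelial markers summed to 17.2 to 20.7 CPM in fetal, 23.6 to 28.9 CPM in neonatal and 92.3 to 108 CPM in adult libraries, but did not all move together. Of 7 tested, 4 were higher and 1 (Kdr) lower in adult than in fetal cells. Against neonatal cells 5 were higher and 2 (Tek and Kdr) lower in adult cells. The part of endothelial cells in the Tnfrsf1b level was not tested. Per kilobase of exon, Tnfrsf1a exceeded Tnfrsf1b by a ratio of 42.5, 40.7 and 20.03 in fetal, 34.6, 34.6 and 39.4 in neonatal and 17.7, 18.2 and 16.3 in adult libraries. Each adult ratio was thus below every other, with fetal replicate 3 the closest to them.

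Tnfrsf11b (osteoprotegerin), a secreted decoy receptor that binds RANKL and TRAIL, was among the most abundant of the family at 130.3, 130.1 and 41.9 CPM in fetal, 289, 299 and 286 CPM in neonatal and 605, 472 and 389 CPM in adult libraries. The ages did not overlap, and it passed for neonatal against fetal (log2 fold change 1.53, SE 0.37, edgeR adjusted p = 0.0136) and adult against fetal cells (2.28, SE 0.38, edgeR adjusted p = 0.000615). For adult against neonatal cells its edgeR adjusted p was 0.104. It was 0.00246 when fetal replicate 3, whose level lay far under the other fetal libraries, was left out, and 0.26 without adult replicate 1. Tnfrsf11a (RANK), the signalling receptor of RANKL, was low in fetal (0.722 ± 0.354 CPM) and neonatal cells (0.336 ± 0.177 CPM) and reached 3.60, 6.14 and 6.74 CPM in adult libraries. It passed in both adult comparisons, with a log2 change of 4.03 (SE 0.48, edgeR adjusted p = 7.36e-05) over neonatal cells. In both the direction follows in part from the filter.

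Tnfrsf12a (Fn14), the receptor of Tnfsf12 and an early growth-factor response gene, moved opposite to its ligand. It measured 217, 211 and 277 CPM in fetal, 159, 159.8 and 165 CPM in neonatal and 119, 117 and 136 CPM in adult libraries, and the ages did not overlap. It fell by 0.92 on the log2 scale from fetal to adult cells (SE 0.11, edgeR adjusted p = 4.65e-05) and by 0.38 from neonatal to adult cells (SE 0.11, edgeR adjusted p = 0.0117). Tnfrsf10b, the death receptor of TRAIL, measured 35.4, 33.02 and 27.5 CPM in fetal, 30.5, 32.9 and 25.8 CPM in neonatal and 8.49, 10.2 and 11.1 CPM in adult libraries. The earlier ages overlapped and all adult libraries lay below them, with a log2 change of -1.69 (SE 0.14, edgeR adjusted p = 6.11e-06) for adult against fetal cells. Tnfrsf19, a receptor of progenitor cells in several tissues, was the other receptor lower in adult than in fetal cells, at 1.26 ± 0.794 CPM in fetal (0.807 CPM without replicate 3) and 0.224 ± 0.13 CPM in adult cells (edgeR adjusted p = 0.00534). Its direction follows in part from the filter, as it reached the cutoff in every library of the fetal age only.

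Several receptors better known from immune cells were near the detection limit before the adult age. Tnfrsf9 (4-1BB), the receptor of Tnfsf9, measured 0.486, 0.132 and 0.478 CPM in fetal, 1.32, 1.30 and 0.777 CPM in neonatal and 8.11, 5.49 and 2.92 CPM in adult libraries. Its ages did not overlap, though the adult libraries differed widely. The rise from fetal to neonatal cells had an edgeR adjusted p of 0.043 that reached 0.117 without 1 library, while the log2 fold change was 3.92 (SE 0.53, edgeR adjusted p = 0.000116) for adult against fetal cells. Tnfrsf26, a receptor with a close relative (Tnfrsf22) that was not analysed here and whose reads could be shared with it, measured 0.432, 0.529 and 1.12 CPM in fetal, 1.82, 1.25 and 1.88 CPM in neonatal and 7.96, 12.1 and 9.96 CPM in adult libraries. It rose by a log2 change of 3.85 between fetal and adult cells (SE 0.35, edgeR adjusted p = 9.33e-06). Its first step, to neonatal cells, had an edgeR adjusted p of 0.0281, which reached 0.0855 without 1 library. Tnfrsf25 (DR3), a death domain receptor of T cells, measured 0.216, 0.0882 and 0.159 CPM in fetal, 0.716, 0.744 and 1.17 CPM in neonatal and 0.995, 1.08 and 1.57 CPM in adult libraries. Its rise lay between fetal and neonatal cells (log2 fold change 2.46, SE 0.46, edgeR adjusted p = 0.00368), and the neonatal and adult libraries overlapped (edgeR adjusted p = 0.27). Tnfrsf14 (HVEM) had 0 counts before the adult age and 25, 15 and 14 in adult libraries, at least 8.92-fold higher than in fetal cells against the floor of 3 counts per library.

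Of the remaining receptors, Tnfrsf21 (DR6) was 9.96 ± 1.64 CPM in fetal, 8.73 ± 0.75 CPM in neonatal and 19.0 ± 2.55 CPM in adult cells and passed in both adult comparisons, with a log2 fold change of 0.94 over fetal cells (edgeR adjusted p = 0.00042). Tnfrsf4 (OX40) passed only between adult and fetal cells, at 0.993 ± 0.184 against 0.23 ± 0.271 CPM, or 0.081 CPM without fetal replicate 2 (edgeR adjusted p = 0.0407), which lay above the threshold without any 1 library other than fetal replicate 2 or 3 and ran to 0.106 without fetal replicate 1. Tnfrsf8, Tnfrsf13b, Tnfrsf17 and Tnfrsf18 were not tested and had at most 7 counts in any library. On the RPKM scale Tnfrsf12a led the receptors in fetal cells at 244 ± 37.7, above Tnfrsf1a (77.6 ± 18.2) and Tnfrsf11b (36.2 ± 18.3). In adult cells the order was Tnfrsf1a (208 ± 23.4), Tnfrsf11b (175 ± 39.2) and Tnfrsf12a (129 ± 10.9), in which Tnfrsf1a and Tnfrsf11b did not differ beyond their spread.

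**Figure D3:**
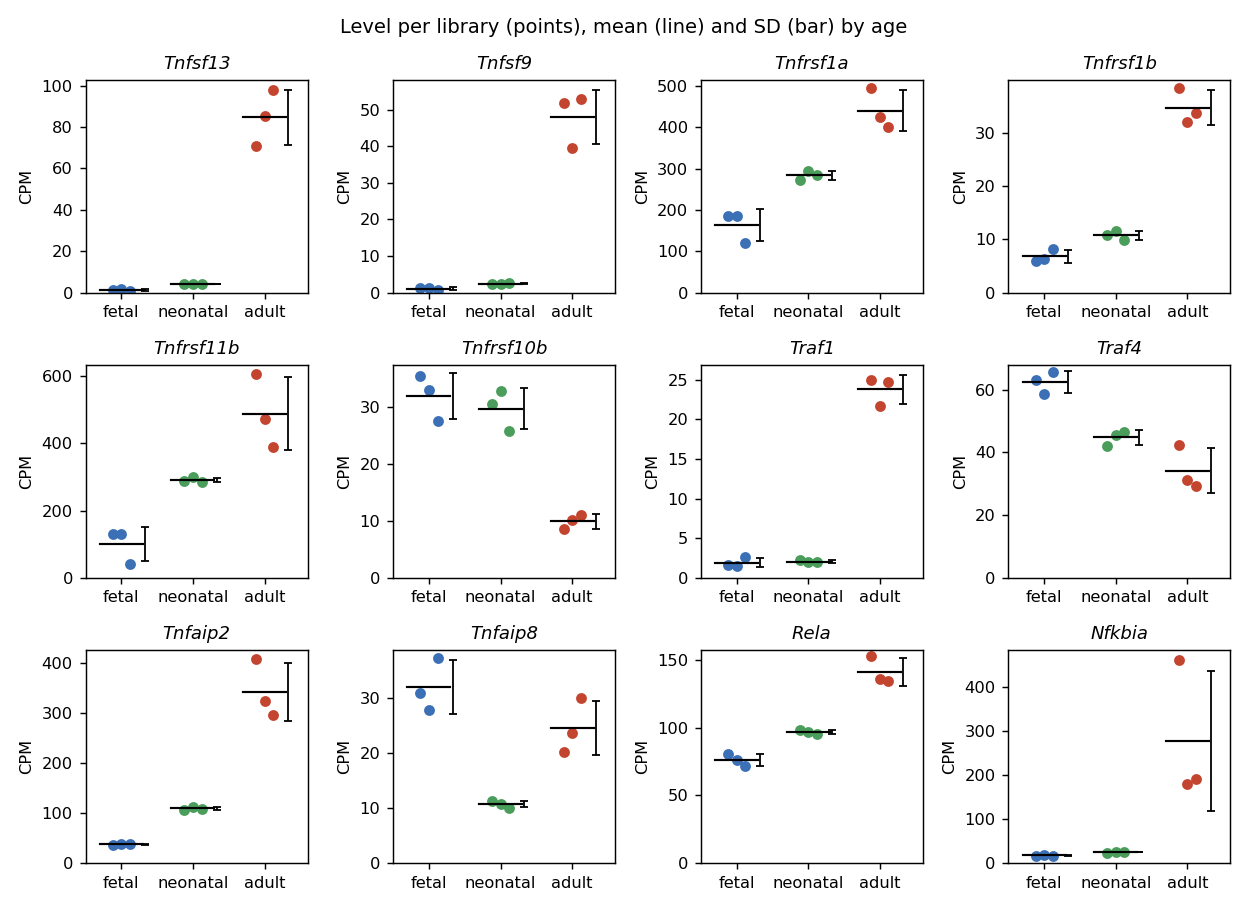
Level of selected genes (CPM, axes from 0) in each library by age, with the mean as a line and the SD as a bar. The adult libraries lie above all others for Nfkbia and Tnfsf13, with Nfkbia at 462 CPM in adult replicate 1 against 179 and 190.4 CPM in the other adult libraries, and below all others for Tnfrsf10b.

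The Traf adaptors had the median fold change closest to 0 between adult and fetal cells. Of 6 tested, 1 was higher and 2 lower in adult than in fetal cells, and their median log2 fold change in that pair was 0.01. Those that passed made up 50% of the 6, beside 70.5% of all genes. Between adult and neonatal cells 3 were higher and 2 lower in adult cells, or 83.3%, beside 63.5% of all genes. Between neonatal and fetal cells 1 was lower and none higher in neonatal cells, or 16.7%, beside 36.3%. Traf1, an adaptor without a RING domain that works in complex with Traf2 and is itself a known NF-κB target, measured 1.67, 1.499 and 2.603 CPM in fetal, 2.20, 1.95 and 2.01 CPM in neonatal and 25.0, 21.7 and 24.7 CPM in adult libraries. Fetal and neonatal libraries overlapped (edgeR adjusted p = 0.748), and adult cells exceeded fetal cells by a log2 change of 3.63 (SE 0.20, edgeR adjusted p = 4.13e-07). Traf2, the ubiquitin ligase adaptor of both TNF receptors, measured 31.3, 29.4 and 36.1 CPM in fetal, 24.7, 28.3 and 25.6 CPM in neonatal and 29.1, 34.9 and 35.9 CPM in adult libraries. The fetal and adult libraries of Traf2 overlapped (log2 fold change 0.05, edgeR adjusted p = 0.73). For adult against neonatal cells its edgeR adjusted p was 0.0241, which became 0.0771 to 0.0986 without neonatal replicate 1 or 3 or without adult replicate 2 or 3.

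Traf6, the adaptor shared with interleukin-1 and Toll-like receptors, measured 15.3, 15.6 and 15.1 CPM in fetal, 14.04, 14.5 and 13.5 CPM in neonatal and 9.03, 7.22 and 7.11 CPM in adult libraries. Adult cells were lower than both earlier ages, by 0.98 on the log2 scale against fetal cells in a fall from 15.3 ± 0.215 to 7.79 ± 1.08 CPM (edgeR adjusted p = 5.99e-05). Traf4, a family member active in development, measured 63.0, 58.7 and 65.7 CPM in fetal, 42.2, 45.6 and 46.5 CPM in neonatal and 42.3, 31.1 and 29.1 CPM in adult libraries. It was lower at both later ages than in fetal cells (edgeR adjusted p = 0.0176 and 0.000236), while adult replicate 1 reached the neonatal levels. Without neonatal replicate 1 or 2 the fetal-to-neonatal edgeR adjusted p was 0.0698 and 0.0527. Traf7, which lacks the TRAF domain of its relatives and was the most abundant of them per kilobase, measured 176, 173 and 135 CPM in fetal, 182, 179 and 176 CPM in neonatal and 154, 159.8 and 164 CPM in adult libraries. It passed in no pair. Without fetal replicate 3, its lowest library, adult cells were lower than fetal and neonatal cells at an edgeR adjusted p of 0.0301 and 0.00567, the lowest of any alternative. Traf3, a negative regulator of the non-canonical NF-κB pathway, was 57.2 ± 3.09, 54.2 ± 1.8 and 63.1 ± 5.47 CPM in fetal, neonatal and adult cells and passed only for adult against neonatal cells (edgeR adjusted p = 0.0342), which rose to as much as 0.12 when 1 library was left out.

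The Tnfaip genes are mostly named for their induction by TNF, and Tnfaip8l2 for its likeness to Tnfaip8. The 5 followed different courses. Tnfaip8l2 (TIPE2), a brake on immune receptor signalling found in myeloid and lymphoid cells, measured 0.540, 0.573 and 1.33 CPM in fetal, 1.87, 1.25 and 1.75 CPM in neonatal and 65.8, 83.9 and 97.4 CPM in adult libraries. It had the largest fold change of the genes with counts at all ages, 6.67 on the log2 scale between fetal and adult cells (SE 0.29, edgeR adjusted p = 9.8e-08). Between neonatal and fetal cells it did not pass with all libraries but passed without fetal replicate 3 (edgeR adjusted p = 0.0134) or adult replicate 1 (0.0477). Tnfaip2 measured 36.1, 37.7 and 38.3 CPM in fetal, 106, 113 and 108 CPM in neonatal and 407, 324 and 295 CPM in adult libraries, with no overlap between ages. It rose by 1.54 (SE 0.11, edgeR adjusted p = 2.77e-05) and then 1.65 (SE 0.11, edgeR adjusted p = 2.06e-06) on the log2 scale at the 2 steps.

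Tnfaip8 and Tnfaip6 were lowest at the neonatal age. Tnfaip8, a regulator of cell survival, measured 30.8, 27.7 and 37.3 CPM in fetal, 11.2, 10.7 and 10.0 CPM in neonatal and 20.2, 23.5 and 29.9 CPM in adult libraries. All neonatal libraries were below all others, by -1.58 against fetal cells (SE 0.16, edgeR adjusted p = 0.000159), and adult exceeded neonatal cells by 1.201 (SE 0.16, edgeR adjusted p = 0.000169) on the log2 scale. Tnfaip6 (TSG-6), a secreted hyaluronan-binding protein with anti-inflammatory action, measured 22.3, 22.5 and 25.8 CPM in fetal, 10.6, 10.3 and 8.80 CPM in neonatal and 25.4, 11.8 and 12.7 CPM in adult libraries. It fell from fetal to neonatal cells by 1.24 on the log2 scale (SE 0.26, edgeR adjusted p = 0.00657). Its later rise of 0.74 on the log2 scale (edgeR adjusted p = 0.0341) shrank to 0.31 without adult replicate 1 (edgeR adjusted p = 0.0681), and the p was 0.104 without neonatal replicate 3. Without adult replicate 1 adult cells were also lower than fetal cells, by -0.93 (edgeR adjusted p = 0.000267 against 0.109 with it). Tnfaip1, an adaptor of a ubiquitin ligase, measured 255, 254 and 249.6 CPM in fetal, 286, 282 and 277 CPM in neonatal and 176, 186 and 180.3 CPM in adult libraries. Its adult libraries were below all others, by -0.48 on the log2 scale against fetal cells (SE 0.05, edgeR adjusted p = 3.54e-05), and the small neonatal rise of 0.16 (edgeR adjusted p = 0.0483, up to 0.143 without 1 library and 0.091 with the replicate number as a block) turned to -0.01 when libraries were scaled by their totals alone.

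All 3 NF-κB subunits in the table were higher in adult cells than at both earlier ages, beside 26.5% of all genes. Rela (p65), the main activating subunit of the canonical pathway (chromosome 1, 220992770 to 221003249), measured 80.2, 76.1 and 71.6 CPM in fetal, 98.4, 96.8 and 95.5 CPM in neonatal and 153, 136 and 135 CPM in adult libraries. Nfkb1, which encodes p105 and its product p50, the usual partner of p65 (chromosome 2, 240773520 to 240890053), measured 70.1, 74.4 and 81.8 CPM in fetal, 115, 118 and 119.7 CPM in neonatal and 161, 145 and 136 CPM in adult libraries. Nfkb2, which encodes p100 and p52 of the non-canonical pathway (chromosome 1, 266053002 to 266059256), measured 38.8, 37.8 and 36.7 CPM in fetal, 45.2, 42.7 and 44.4 CPM in neonatal and 139.8, 117 and 101 CPM in adult libraries. For all 3 no library overlapped between ages. Between adult and fetal cells the log2 fold change was 0.89 for Rela (SE 0.07, edgeR adjusted p = 3.84e-06), 0.97 for Nfkb1 (SE 0.08, edgeR adjusted p = 5.47e-06) and 1.66 for Nfkb2 (SE 0.11, edgeR adjusted p = 1.1e-06). Rela and Nfkb1 also rose between fetal and neonatal cells, by 0.35 and 0.64 (edgeR adjusted p = 0.00535 and 0.000518), whereas Nfkb2 gave an edgeR adjusted p of 0.132 there, or 0.039 without adult replicate 1. Rel, Relb and the ubiquitin editor Tnfaip3 were not analysed here.

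All 5 inhibitors and related genes were higher in adult cells than at both earlier ages, beside 26.5% of all genes. None passed between neonatal and fetal cells with all libraries, beside 36.3% of all genes. Nfkbia (IκBα), the inhibitor that NF-κB induces to end its own activity (chromosome 6, 76267227 to 76270457), measured 16.6, 18.1 and 16.5 CPM in fetal, 23.7, 25.2 and 24.6 CPM in neonatal and 462, 179 and 190.4 CPM in adult libraries. The ages did not overlap, and adult exceeded fetal cells by a log2 change of 4.02 (SE 0.36, edgeR adjusted p = 1.28e-05), or 3.44 without adult replicate 1 (edgeR adjusted p = 1.35e-08). That replicate moved the adult mean from 185 to 277 ± 160 CPM. For neonatal against fetal cells, whose spread was estimated from all 9 libraries, the edgeR adjusted p was 0.254 with it and 0.000842 without it. The ratio of Nfkbia to Rela CPM was 0.207, 0.237 and 0.23 in fetal, 0.24, 0.261 and 0.258 in neonatal and 3.01, 1.32 and 1.41 in adult libraries, so that Nfkbia rose more than the subunit it binds in each adult library.

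Nfkbie (IκBε), a slower inhibitor of the same dimers, measured 12.04, 10.1 and 10.7 CPM in fetal, 11.5, 13.8 and 12.7 CPM in neonatal and 68.0, 58.1 and 48.9 CPM in adult libraries. Adult libraries exceeded all others, by a log2 fold change of 2.41 over fetal cells (SE 0.14, edgeR adjusted p = 4.5e-07). Nfkbib (IκBβ) measured 13.99, 11.4 and 12.5 CPM in fetal, 11.01, 11.7 and 11.5 CPM in neonatal and 41.2, 26.9 and 28.2 CPM in adult libraries. Nfkbiz (IκBζ), a nuclear cofactor of NF-κB (chromosome 11, 47243342 to 47271487), measured 41.2, 52.4 and 27.6 CPM in fetal, 32.5, 32.995 and 33.3 CPM in neonatal and 263, 138 and 141 CPM in adult libraries. As for Nfkbia, adult replicate 1 was the highest library, and the log2 fold change over fetal cells was 2.16 (SE 0.29, edgeR adjusted p = 0.000173). Nfkbil1, a gene of the major histocompatibility region near Tnf that is named for its likeness to the IκB proteins, measured 9.18, 8.47 and 9.30 CPM in fetal, 7.60, 6.65 and 7.19 CPM in neonatal and 22.4, 16.7 and 15.7 CPM in adult libraries. Its log2 fold change over fetal cells was 1.02 (SE 0.15, edgeR adjusted p = 0.00022). Neonatal libraries lay below the fetal ones, at an edgeR adjusted p of 0.121 that was 0.0493 without adult replicate 1.

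Because NF-κB is known to act on the genes of its own subunits and inhibitors, promoter sequences of the genes were searched for the letters it binds. RefSeq promoters (build GRCr8, 250 bases before to 50 after the start of the gene) were found for 38 of the 48 genes. A strict form of the binding letters (GGGA, any base, then TTTCC, on either strand) occurred in 5 of them (Ltb, Nfkb1, Nfkb2, Nfkbia and Nfkbiz), or 13.2%, beside 0.362% of 33469 promoters and 0.498% of the 9039 promoters of tested genes. The broader NF-κB consensus motif, which contains the strict letters, occurred in 11 (28.9%), beside 7.51% of all promoters and 10.1% of those of tested genes. The 4 promoters below are shown because their genes were measured and were higher in adult cells than at both earlier ages. Capitals mark the strict letters, which for Nfkbia lie on the opposite strand, 31 to 22 bases before the start.
Nfkbia, chr6:78597023-78597322, minus strand: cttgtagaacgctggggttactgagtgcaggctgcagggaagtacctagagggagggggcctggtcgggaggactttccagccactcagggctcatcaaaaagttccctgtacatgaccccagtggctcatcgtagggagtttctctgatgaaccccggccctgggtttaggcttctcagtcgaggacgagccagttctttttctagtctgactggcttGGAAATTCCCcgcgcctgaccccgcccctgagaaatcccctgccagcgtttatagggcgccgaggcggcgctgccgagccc
Nfkb2, chr1:255108124-255108423, plus strand: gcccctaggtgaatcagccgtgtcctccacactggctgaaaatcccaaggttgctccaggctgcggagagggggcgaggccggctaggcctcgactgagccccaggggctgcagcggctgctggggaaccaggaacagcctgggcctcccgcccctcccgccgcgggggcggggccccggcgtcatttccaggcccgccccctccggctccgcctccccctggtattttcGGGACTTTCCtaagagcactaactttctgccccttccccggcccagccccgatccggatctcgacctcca
Nfkb1, chr2:226805413-226805712, minus strand: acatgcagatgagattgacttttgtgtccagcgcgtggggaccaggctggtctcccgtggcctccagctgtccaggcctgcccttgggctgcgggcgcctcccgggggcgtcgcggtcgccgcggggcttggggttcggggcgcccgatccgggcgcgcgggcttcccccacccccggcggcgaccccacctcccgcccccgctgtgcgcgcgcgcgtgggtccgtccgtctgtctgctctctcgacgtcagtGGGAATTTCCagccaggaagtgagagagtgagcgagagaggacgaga
Nfkbiz, chr11:58251471-58251770, plus strand: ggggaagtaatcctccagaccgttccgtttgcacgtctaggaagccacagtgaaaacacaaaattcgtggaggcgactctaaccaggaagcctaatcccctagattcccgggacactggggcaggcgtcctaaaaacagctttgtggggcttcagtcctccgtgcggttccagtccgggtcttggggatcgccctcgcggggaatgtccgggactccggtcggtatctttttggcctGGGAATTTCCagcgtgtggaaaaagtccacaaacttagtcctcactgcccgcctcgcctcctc
The match lay 20 to 11 bases before the start in Nfkb2, 13 to 4 before it in Nfkbiz and at bases 3 to 12 after it in Nfkb1. The promoters of Rela and Nfkbib, also higher in adult cells than at both earlier ages, held neither form, and that of Nfkbie held the consensus motif alone. A match describes letters only. Traf7, which passed in no pair of ages, also held the consensus motif, as did Traf3.

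**Figure D4:**
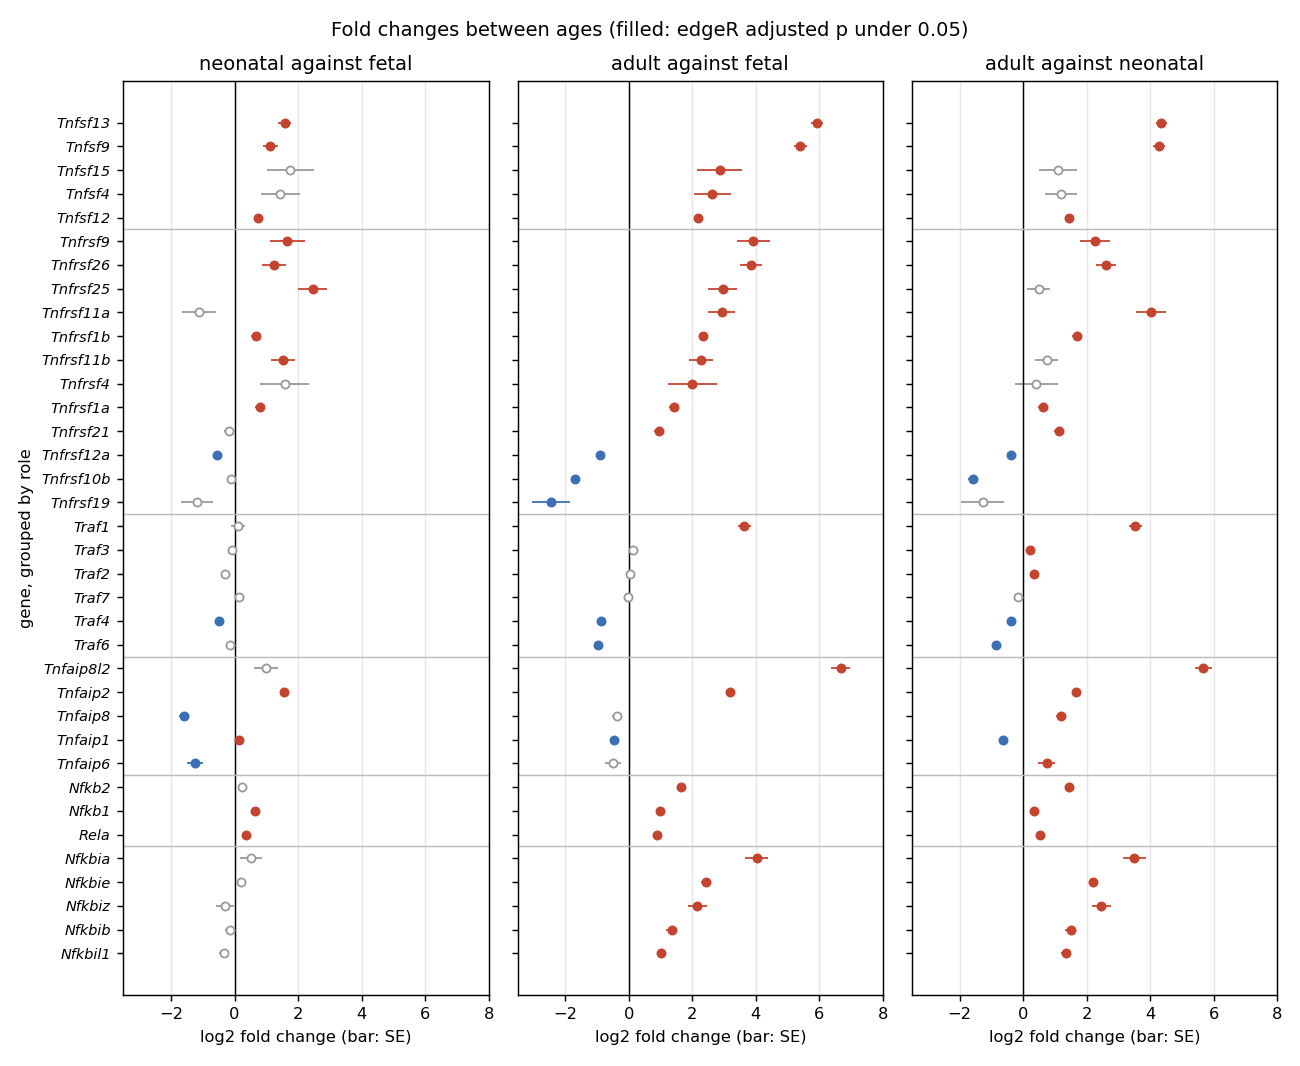
Log2 fold change (point) and SE (bar) of the tested genes, grouped by role, in the 3 pairs of ages, with filled points for an edgeR adjusted p under 0.05. Tnfsf13b and Tnfrsf14, at 0 counts before the adult age, are not shown. In both adult comparisons the ligands shown and the Nfkb genes lie right of 0 and Tnfrsf10b, Tnfrsf12a, Traf4, Traf6 and Tnfaip1 left of it.

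Other genes of the pathway were read from 3 lists. Genes of these lists that reached the filter's cutoff at some ages only were not set apart. For such genes the direction follows in part from the filter. Of 12 TNF-family genes with symbols outside the rule, 11 were in the table and 6 were tested, of which 4 were higher and none lower in adult than in fetal cells. That was 66.7% of the 6, beside 70.5% of all genes that passed in either direction. Cd40, the receptor of the T cell ligand CD40L, measured 0.702, 0.661 and 0.425 CPM in fetal, 1.76, 2.28 and 2.52 CPM in neonatal and 31.2, 31.7 and 30.3 CPM in adult libraries, a log2 change of 5.68 over fetal cells (edgeR adjusted p = 2.43e-08). Its fetal replicate 3 lay below the filter's cutoff, so the direction against fetal cells follows in part from the filter. Ltbr, the lymphotoxin receptor that feeds the non-canonical pathway, measured 157, 143 and 121 CPM in fetal libraries and had means of 222 ± 1.33 CPM in neonatal and 398 ± 38.8 CPM in adult cells (edgeR adjusted p = 8.71e-05 for that step). Eda (ectodysplasin) rose between fetal and neonatal cells only, from 8.05 ± 0.947 to 19.5 ± 1.25 CPM (edgeR adjusted p = 0.000303).

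Of 33 adaptors, kinases and ubiquitin enzymes of TNF signalling that were tested, 21 were higher and 4 lower in adult than in fetal cells and 10 higher and 4 lower in neonatal than in fetal cells. Those that passed made up 75.8% and 42.4% of the list, beside 70.5% and 36.3% of all genes. By direction, 63.6% and 30.3% were higher, beside 34.9% and 18.3% of all genes. Ikbke, an inducible IκB-related kinase, rose from 9.3 ± 2.22 CPM in fetal through 18.4 ± 1.01 CPM in neonatal to 84.3 ± 7.53 CPM in the adult (adult over fetal, edgeR adjusted p = 2.25e-07). Bcl3, a nuclear IκB protein, reached 94.2, 69.2 and 47.6 CPM in adult libraries from a fetal mean of 5.75 ± 1.17 CPM (edgeR adjusted p = 2.13e-06). Chuk (IKKα), the kinase of the non-canonical pathway, went the other way, from 71.3 ± 3.19 CPM in fetal to 34.8 ± 2.22 CPM in adult cells, a log2 fold change of -1.04 (edgeR adjusted p = 1.86e-06). Of 23 tested genes known as NF-κB targets, 21 were higher and 1 lower in adult than in fetal cells, and their median log2 fold change was 3.83. Together 95.7% of the 23 passed, beside 70.5% of all genes. Icam1, a leukocyte adhesion molecule, measured 94.6, 93.4 and 100.4 CPM in fetal, 219.8, 214 and 222 CPM in neonatal and 984, 735 and 612 CPM in adult libraries (adult over fetal, edgeR adjusted p = 2.54e-07). Ptgs2 (cyclooxygenase-2) was the gene that fell, from 41.8, 50.4 and 88.3 CPM in fetal to 29.3, 6.645 and 5.32 CPM in adult libraries (edgeR adjusted p = 0.00939). The macrophage markers moved with these lists too, and their part in them was not tested.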

How the data were processed

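RNA-seq gene counts of 9 libraries were analysed. Per the file headers, the deposited counts were made by the authors with featureCounts 1.6.3 on rn6 genes, with no options beyond the annotation and the output. By that program's defaults strand was not used and reads mapped to several places were not counted. The submitters' processing notes also name Trimmomatic 0.39, STAR 2.5.2b and DESeq2, without their settings. Exon lengths came from the same table. The deposited normalized table was not used.

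The tests used edgeR 4.0.16 under R 4.3.3 (filterByExpr, TMM, robust quasi-likelihood fit to all 9 libraries with age as the only term), with Benjamini-Hochberg adjustment over the 11337 genes tested and a threshold of 0.05. CPM used TMM-scaled library sizes, RPKM is CPM per kilobase of exon, and the prior count was 2. Standard errors come from each fold change and its F statistic. The fit was also run on simulated counts, with a single spread setting for all genes and far fewer changed genes than passed here. That run does not vouch for the scaling or the p-values of the real data. No pair of libraries of 1 age agreed within counting noise. Each was counted as a sample, though this check cannot tell separate cultures from repeat libraries of 1 culture. Intervals and floors (3 counts) cover counting error only. A set of 16 alternatives was run, among them DESeq2 1.42.0.

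The members and lists were chosen with earlier results of these data known. Values per library are given for Tnf, Tnfrsf1a, Tnfrsf1b, Traf2, Nfkb1, Rela and Nfkbia, for the 4 members of each role with the smallest adjusted p over all ages and at least 5 CPM, for members that passed between neonatal and fetal cells with a log2 fold change of at least 1, and for up to 3 members that passed in no pair. Of the pathway lists, genes with the smallest adjusted p were named. Nfkbiz and Tnfrsf12a, given per library too, and Ptgs2, the exception in its list, were chosen after their values were seen. Marker lists for 13 cell types were summed.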

Additional observations from a re-analysis of the deposited data

How the results depend on the processing

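Of the 81 differences between ages that passed the test, 71 also passed under every alternative other than a test against a log2 fold change of 1, and 45 passed under that one too. Those lost under at least 1 of the other alternatives were Tnfaip1, Tnfrsf26, Tnfrsf9 and Traf4 between neonatal and fetal cells, Tnfrsf4 between adult and fetal cells, and Tnfaip6, Tnfrsf12a, Traf2, Traf3 and Traf4 between adult and neonatal cells. The test against a log2 fold change of 1 left 2 genes between neonatal and fetal cells (1 higher and 1 lower), 24 between adult and fetal cells (22 higher and 2 lower), and 19 between adult and neonatal cells, 1 of them lower. Scaling by library totals alone moved the median log2 fold change of all genes between neonatal and fetal cells to -0.18, left 29% of the calls over all genes higher (50.4% with TMM), gave 10 higher and 6 lower genes of the family in that pair, and left 3 lower between adult and neonatal cells. Under it Tnfaip1 between neonatal and fetal cells was reversed, at -0.0147. Leaving out 1 library at a time gave 13 to 23 genes between neonatal and fetal cells (10 to 17 higher, 3 to 6 lower), 32 to 34 between adult and fetal cells (26 to 27 higher, 6 to 7 lower) and 27 to 34 between adult and neonatal cells (23 to 27 higher, 4 to 7 lower). Calls gained without 1 library, beside those given above, were Tnfsf15 without adult replicate 1 (0.0126), Traf2 without adult replicate 1 (0.0426), Tnfsf4 without fetal replicate 3 (0.0166) and Tnfrsf4 without fetal replicate 2 (0.0309) between neonatal and fetal cells, Tnfaip8 between adult and fetal cells without fetal replicate 2 (0.0304) or adult replicate 3 (0.0102), and Tnfsf4 (0.0192) and Tnfrsf19 (0.0472) between adult and neonatal cells without fetal replicate 3, as edgeR adjusted p. Libraries with the same replicate number did not deviate together (correlations from -0.0649 to 0.0521), and the replicate block gave 17, 33 and 31 genes in the 3 pairs, not all of them the same: Tnfaip1 (0.091) was lost and Tnfaip8l2 (0.0398) gained between neonatal and fetal cells, Tnfrsf4 (0.0586) lost and Tnfaip8 (0.0418) gained between adult and fetal cells, and Traf3 (0.062) lost and Tnfrsf19 (0.0411) gained between adult and neonatal cells. Genes with a few counts per library, such as Tnfsf4, Tnfrsf4 and Tnfrsf14, are limited by depth. The causes of these changes were not tested.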

Other observations

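Adult replicate 1 was the highest adult library for many NF-κB genes. It exceeded both other adult libraries for 21 of the 38 tested genes (55.3%), beside 39.8% of all genes tested, and for 23 of 28 genes known as NF-κB targets. The summed level of those targets was 9650 CPM in that library and 6184 and 5277 CPM in the others. Its macrophage marker sum was the lowest of the adult libraries, at 4171 CPM against 4981 and 5729 CPM. Tnfsf13 and Tnfaip8l2, at 71.1 and 65.8 CPM, were lowest in the same library, whereas Nfkbia, Nfkbiz, Tnfaip6, Tnfrsf9, Tnfrsf14 and Tnfsf15 were more than 1.5-fold higher there than the mean of the other adult libraries (as CPM plus 0.5) and Tnfrsf11a more than 1.5-fold lower, together 18.4% of the 38, beside 10.2% of all genes.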
